A study of Drosophila melanogaster with 8 samples.

Results

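The cytoplasmic ribosomal protein genes of Drosophila melanogaster and their duplicate copies were followed in wild-type embryos and in embryos that lack the Polycomb group gene extra sex combs (esc). The members were every gene of the deposited table whose symbol begins with RpL or RpS followed by a number, or with RpLP for the stalk proteins, which gave 92 of 17321 genes. Of these, 78 were the main or sole copy of a ribosomal protein, 47 of the large and 31 of the small subunit. A further 11 were paralogs, written with an a or b or as "-like". The remaining 3, RpL7-like, RpL24-like and RpLP0-like, carry the name of a ribosomal protein, but their yeast homologs are factors that assemble the large subunit, so they are described apart.

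RNA came from whole embryos late in embryogenesis, at stages 14 and 15, pooled by at least 200 per library. The controls were Oregon R (OrgR), a laboratory wild-type strain, and the mutants lacked esc function from both the mother and the zygote, with no allele named in the labels. Each genotype had 4 libraries, titled 1-1, 1-2, 2-1 and 2-2, and libraries that share a genotype and the number before the hyphen are called a set, so that n = 2 sets per genotype throughout. Values are RPKM, in which reads are divided by the length of the gene and by the size of the library, so that levels of different genes can be set side by side per length. The esc transcript itself lay between 10.7 and 12.4 RPKM in the OrgR libraries and between 3.56 and 4.4 RPKM in the esc libraries, below every control. Neuronal, glial, muscle, epidermal, midgut and fat body or blood cell markers (elav, repo, Mhc, grh, GATAe and srp) were all present, as whole embryos should show, and Mhc, the muscle myosin gene, went from 180 to 509 RPKM while repo, the glial factor, went from 29.8 to 18.4 RPKM and srp, of fat body and blood cells, from 58.7 to 35.2 RPKM. The neuronal elav stood at 20.6 and 40.1 RPKM in the OrgR sets and at 21.3 and 12.5 RPKM in the esc sets. In bulk RNA, fewer cells of a type and less RNA per cell cannot be told apart, and the part of such shifts in the results below was not tested.

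Ribosomal proteins clothe and stabilise the ribosomal RNAs of the ribosome, and most are needed in equal numbers in every cell. Their genes are among the most highly transcribed of growing cells, and loss of a single copy of many of them gives the Minute phenotype of slow growth and short bristles in flies. Most fly ribosomal proteins come from 1 gene, but some have a duplicate, and duplicates such as RpS5b, RpS10a, RpS19b and RpL22-like are known for expression in the germ line of the adult ovary or testis.

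The main copies formed a narrow, high band in both genotypes. Their OrgR means ran from 2375 ± 30.5 RPKM for RpL38 to 9808 ± 503 RPKM for RpS16 (SD, n = 2 sets), with a median of 5605 RPKM. In esc they ran from 2554 RPKM for RpL38 to 10295 RPKM for RpS16, with a median of 6083 RPKM. Across the 78 genes the coefficient of variation was 25.8% to 28.2% in every library, and the gene at the 90th percentile lay 1.95 to 2.10 times above that at the 10th. Of the 100 genes with the highest RPKM in a library, 77 or 78 were members. The highest OrgR means after RpS16 belonged to RpS9 (8824 RPKM), RpL27A (8718 RPKM) and RpS7 (8269 RPKM). Among these, RpS9 shares 50.3% of its exonic bases with an antisense RNA gene, and since reads were not assigned by strand its value may include that gene.

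**Figure D1:**
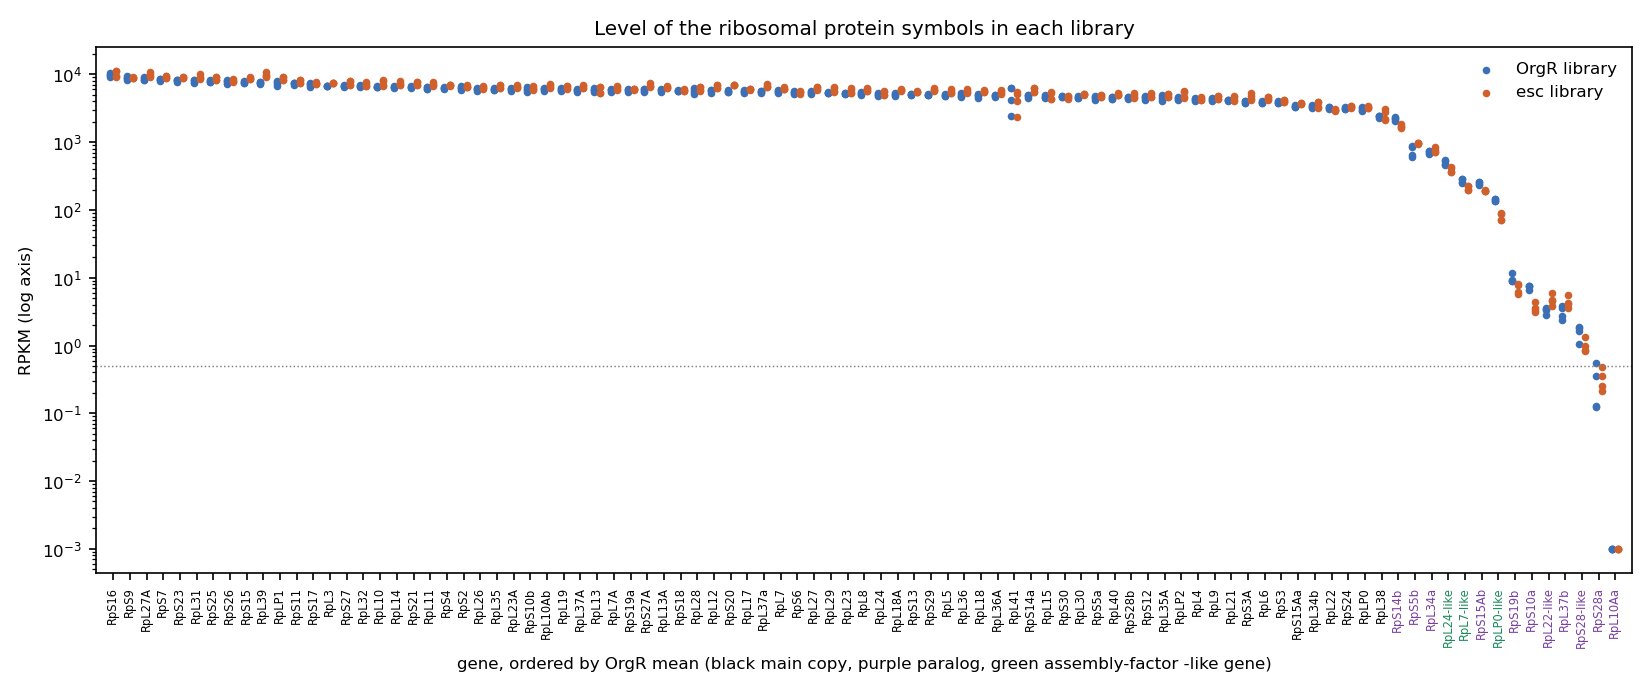
RPKM on a log axis of the ribosomal protein genes, all but 1 of the 92, in the 4 OrgR libraries (blue) and the 4 esc libraries (orange), ordered by OrgR mean. Main copies lie in a band at the top, with OrgR means from 2375 to 9808 RPKM, and the duplicates and -like genes spread below them down to the table's floor of 0.001 RPKM; the dotted line marks the 0.5 RPKM needed for a test.

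The order of the main copies by level was nearly the same in both genotypes, with a Spearman coefficient of 0.97 over 78 genes that share the libraries and the gene lengths. The level had little relation to exonic length (coefficient 0.02 over the same genes). RpL41, which encodes the shortest ribosomal protein, did not have a stable level. It was 6246 and 6396 RPKM in OrgR set 1, 2401 and 4197 RPKM in OrgR set 2, 5539 and 2318 RPKM in esc set 1, and 5180 and 4002 RPKM in esc set 2. The libraries of a set differed by up to 2.39-fold for RpL41, and by at most 1.13-fold for any other main copy.

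As deposited, main copies were slightly higher in esc, by an amount that rarely passed the test. Its size, and for some genes its sign, depends on the scaling. Of the 78, 75 had a higher mean in esc, and the median log2 change was 0.13, against -0.18 for all 10547 tested genes. All 78 lay above that median of all genes. For 37 of 78 (47.4%) every esc library lay above every OrgR library, against 26.2% of all tested genes, and for 1, RpL22, every esc library lay below (1.28%, against 45.3%). In the remaining 40 the libraries overlapped. The RPKM of all genes summed to between 1093770 and 1161820 in the OrgR libraries and to between 1160180 and 1230000 in the esc libraries. With libraries rescaled to the same total, 56 of the 78 were higher in esc (median log2 change 0.05), after quantile normalization 41 (median 0.0076), and with median-of-ratios scaling all 78 (median 0.32).

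Tests were made with limma on log2(RPKM + 1) of the 4 set means, with Benjamini-Hochberg adjustment over all tested genes and a threshold of 0.05, and a gene is said to have risen or fallen only past that threshold. Of all tested genes 20.9% rose and 31.6% fell, 52.5% together. Among main copies 2 rose (2.56%), none fell and 76 did not pass. Both shares lay below those of all tested genes. An unadjusted limma p under 0.05 was found for 4 of the 78 main copies, against 6399 of all 10547 tested genes. With libraries centred on the median gene, 9 of the 90 tested members rose, 7 of them main copies, and 2 fell, against 24.3% and 14.6% of all tested genes. With libraries scaled to the median main copy, none rose and 8 fell, 1 of them the main copy RpL22, against 19.3% and 40.3%. Large subunit genes had a median log2 change of 0.15 and small subunit genes of 0.10, and whether these medians differ was not tested. The set medians of the main copies were 5756 and 5461 RPKM in OrgR and 5951 and 6385 RPKM in esc. The esc sets thus stood above both OrgR sets, and they lay further from each other than esc set 1 lay from OrgR set 1.

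RpL39, a small protein of the large subunit that lines the exit tunnel of the nascent chain, was one of the pair that rose. In the order 1-1, 1-2, 2-1 and 2-2, which is kept below, the OrgR libraries held 7214, 7381, 7785 and 7804 RPKM of it and the esc libraries 9188, 9428, 9869 and 11007 RPKM. All esc libraries lay above all controls. The mean went from 7546 ± 352 to 9873 ± 799 RPKM (SD, n = 2 sets each), 30.8% higher, which is 0.39 ± 0.11 on the log2 scale (SE of the fit, limma adjusted p = 0.0431). RpL39 has 288 exonic bases, the fewest of the 92 members. Over the 78 main copies the log2 change had a Spearman coefficient of -0.25 with exonic length. The part of length in the rise of RpL39 was not tested. RpS20, a protein of the head of the small subunit, was 5739, 5581, 5818 and 5440 RPKM in OrgR and 6901, 6998, 6888 and 6904 RPKM in esc. The esc values were close together and above every control. Its mean went from 5644 ± 21.9 to 6923 ± 37.6 RPKM, with a log2 change of 0.29 ± 0.09 (limma adjusted p = 0.0491). Both calls are fragile: leaving out any of the 4 sets ended each of them, as did leaving out OrgR library 2-1 or esc library 1-2, and the RpS20 call also ended without OrgR library 1-2, OrgR library 2-2 or esc library 2-1. Both also ended after quantile normalization, with libraries scaled to the median main copy and without the filter on low values, and that of RpS20 with libraries rescaled to the same RPKM total.

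**Figure D2:**
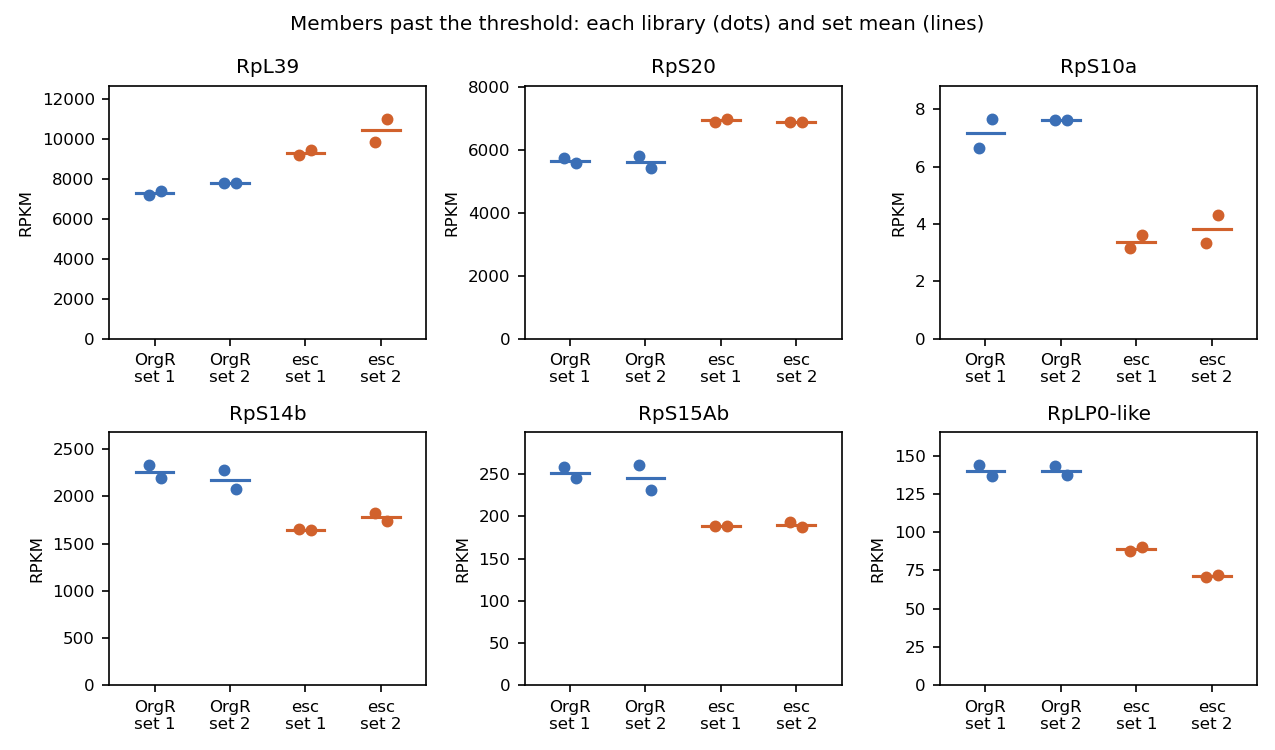
RPKM of the 6 members past the threshold, in each library (dots) and as the mean of a set (lines), on axes that start at 0. In every panel the 4 esc libraries lie on 1 side of the 4 OrgR libraries, above for RpL39 and RpS20 and below for RpS10a, RpS14b, RpS15Ab and RpLP0-like.

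Among further main copies with known roles, none of those described next passed the threshold. The ones outside the stalk and ubiquitin fusions were picked for their known roles after values had been seen. RpLP0, RpLP1 and RpLP2 form the stalk that recruits elongation factors. Their means were 3081 and 3246 RPKM, 7369 and 8718 RPKM, and 4377 and 5087 RPKM in OrgR and esc, and their log2 changes were 0.08, 0.24 and 0.21 (limma adjusted p = 0.525, 0.129 and 0.245). Only for RpLP1 did the libraries of the genotypes not overlap. RpS27A and RpL40 are made as fusions to ubiquitin, from which the ribosomal protein is cut. RpS27A went from 5816 ± 313 to 6847 ± 455 RPKM and RpL40 from 4516 ± 18.9 to 4996 ± 112 RPKM, with log2 changes of 0.23 and 0.15 (limma adjusted p = 0.128 and 0.223). RpL5 and RpL11, which enter the ribosome together with the small ribosomal RNA of the large subunit, had log2 changes of 0.18 and 0.16, and RpL3, near the peptidyl transferase centre, of 0.12. RpS3, at the entry of the mRNA channel, had a log2 change of 0.06. RpS6, the classic target of S6 kinase, was at 5418 ± 183 RPKM in OrgR and 5431 ± 196 RPKM in esc, with overlapping libraries (0.00 ± 0.10 on the log2 scale, limma adjusted p = 0.975).

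Among main copies, 3 had a lower mean in esc: RpL22, RpL41 and RpS30. RpL22, an RNA-binding protein of the large subunit, was 3325, 3159, 3349 and 3117 RPKM in OrgR and 2935, 2921, 3046 and 2978 RPKM in esc. Every esc value was below every control, by a small margin. The log2 change was -0.12 ± 0.09 (limma adjusted p = 0.273), so it did not pass. When every library was instead scaled to its median main copy, it was -0.26 (limma adjusted p = 0.0353), against a median of -0.31 over all tested genes on that scale. RpL22 shares 34.3% of its exonic bases with a long noncoding RNA gene. RpS30, whose precursor is fused to a ubiquitin-like protein, was at 4675 and 4607 RPKM (log2 change -0.02), and RpL41 at 4810 ± 2137 and 4260 ± 468 RPKM (log2 change -0.15, limma adjusted p = 0.74).

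As a share of all RPKM in a library, the members together took 39.9%, 39.2%, 40.0% and 39.1% in OrgR and 40.5%, 40.5%, 41.4% and 41.6% in esc. Every esc library was above every control. The means were 39.6% ± 0.0024 and 41.0% ± 0.713 (SD, n = 2 sets), a difference of 1.43 percentage points, and the exact two-sided permutation test over the 4 sets gave p = 0.333, the smallest it can give. The 11 paralogs, without the 3 assembly factor genes, made up 0.846% to 0.924% of the members' RPKM in OrgR and 0.731% to 0.756% in esc. RpS14b weighs most in this share, at 2219 RPKM in OrgR and 1714 RPKM in esc. Of the 11 paralogs, 5 had a higher mean in esc, among them RpS5b (740 to 973 RPKM) and RpL34a (706 to 763 RPKM). The share is thus no measure of the paralogs as a class.

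**Figure D3:**
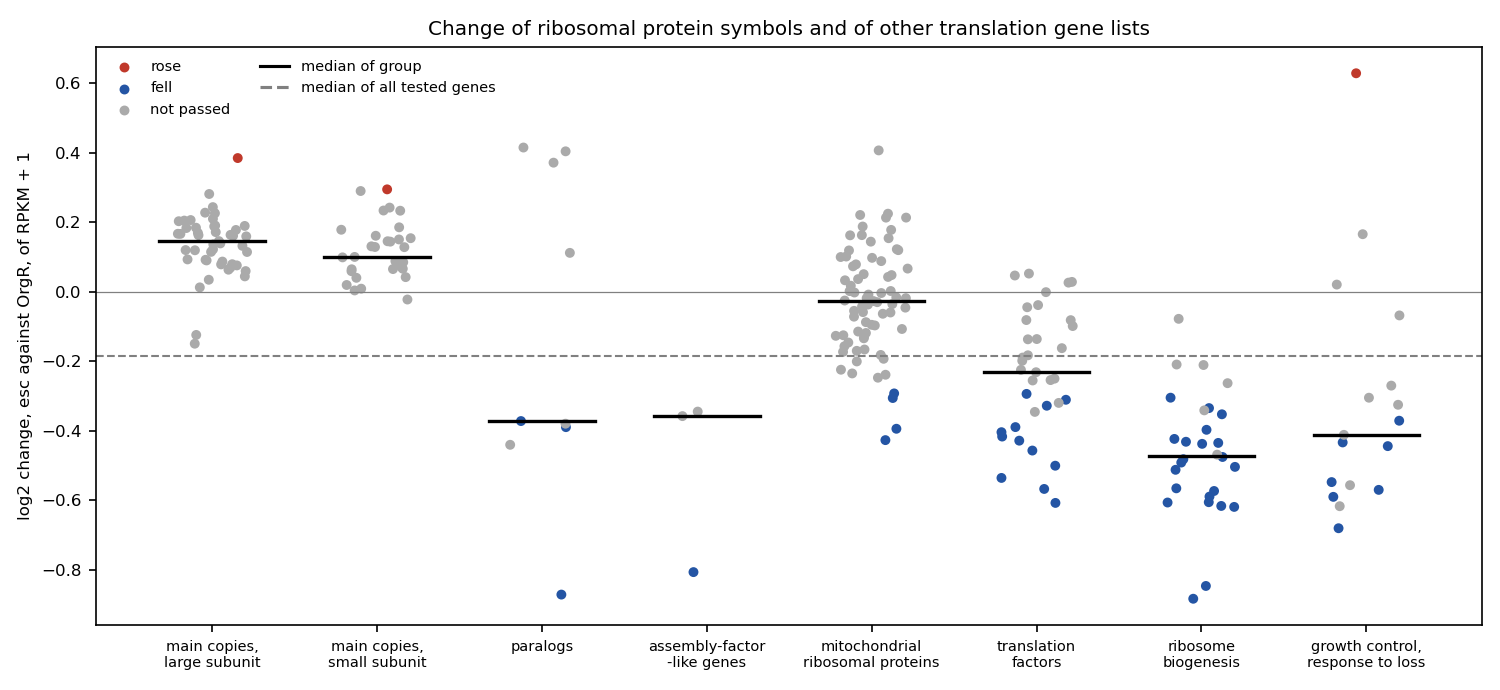
Log2 change of RPKM + 1 from OrgR to esc of each tested gene, by group, with the group's median (black line) and the median of all tested genes (dashed line, -0.18). Main copies cluster just above 0, paralogs spread from -0.87 to 0.42, and the ribosome biogenesis genes lie below with a median of -0.47.

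The duplicates covered a wide range of levels, from the floor of the table to 2219 RPKM for RpS14b in OrgR, and 3 of them fell. RpL10Aa was listed at the floor of 0.001 RPKM in all 8 libraries, and RpS28a averaged 0.29 ± 0.23 RPKM in OrgR and 0.33 ± 0.06 RPKM in esc, so neither was tested. The filter asked for a mean of at least 0.5 RPKM over all libraries. Of the 9 tested paralogs none rose, 3 fell (33.3%, near the 31.6% of all tested genes) and 6 did not pass. After centring on the median gene 2 rose, RpL22-like and RpL37b (limma adjusted p = 0.0381 and 0.0452), and 1 fell. On that scale 24.3% of all tested genes rose and 14.6% fell. As deposited the tested paralogs had a median log2 change of -0.37. Of these 9, 5 had an unadjusted limma p under 0.05, as had 6399 of all 10547 tested genes.

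RpS14b fell, and it was the most abundant duplicate. RpS14 is a protein of the platform of the small subunit, and its genes lie head to tail on the X chromosome, RpS14a from 7933742 to 7934677 and RpS14b from 7934898 to 7935792 (dm6, plus strand). RpS14b was 2329, 2191, 2278 and 2076 RPKM in OrgR and 1654, 1640, 1829 and 1734 RPKM in esc, all esc libraries below all controls, with a log2 change of -0.37 ± 0.09 (limma adjusted p = 0.0288). RpS14a went the other way, from 4795 ± 91.6 to 5876 ± 607 RPKM, without passing (log2 change 0.29, limma adjusted p = 0.0905). RpS14b was therefore 46.3% ± 0.34 of RpS14a in OrgR and 29.2% ± 1.4 in esc (SD, n = 2 sets), while the sum of both was 7014 ± 150 and 7591 ± 702 RPKM. The coding sequences of these copies are nearly identical, so how reads were divided between them is uncertain. The call of RpS14b ended under median-of-ratios scaling, after centring on the median gene, without the filter on low values, without any of the 4 sets and without OrgR library 2-1.

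RpS15Ab, a single-exon copy on chromosome arm 2R, also fell. RpS15A is a protein of the body of the small subunit. The duplicate was 259, 245, 260 and 231 RPKM in OrgR and 189, 189, 194 and 187 RPKM in esc, with no overlap. The mean went from 249 ± 4.5 to 190 ± 1.1 RPKM, with a log2 change of -0.39 ± 0.08 (limma adjusted p = 0.0169). The main copy RpS15Aa, on the X chromosome, had a log2 change of 0.15 (limma adjusted p = 0.221), and RpS15Ab went from 7.38% to 5.08% of it. The call ended under median-of-ratios scaling, after centring on the median gene and without any of the 4 sets.

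The duplicate with the largest fall was RpS10a, on 3R, whose product belongs to the head of the small subunit. It was 6.66, 7.67, 7.62 and 7.63 RPKM in OrgR and 3.15, 3.62, 3.34 and 4.32 RPKM in esc. The highest esc value was well below the lowest control. The mean went from 7.40 ± 0.33 to 3.6 ± 0.31 RPKM, 51.3% lower, with a log2 change of -0.87 ± 0.11 (limma adjusted p = 0.00746), and this call held under all 26 other settings tried. The main copy RpS10b was at 6008 and 6290 RPKM, so that RpS10a was 0.124% of it in OrgR and 0.0574% in esc.

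RpS19b, RpS28-like, RpL22-like, RpL37b, RpS5b and RpL34a did not pass. RpS19b, a copy of a head protein needed for maturation of the small subunit in human cells, was 11.8, 9.38, 8.86 and 9.0 RPKM in OrgR and 5.74, 6.25, 8.13 and 7.70 RPKM in esc, without overlap (log2 change -0.44 ± 0.17, limma adjusted p = 0.0864). RpS28-like went from 1.61 to 1.00 RPKM with overlapping libraries (log2 change -0.38, limma adjusted p = 0.0773). RpL22-like lay the other way from RpL22: it was 3.38, 2.82, 3.64 and 3.41 RPKM in OrgR and 3.82, 4.63, 4.50 and 6.03 RPKM in esc. All its esc libraries were above all controls, with a log2 change of 0.40 ± 0.14 (limma adjusted p = 0.069). RpL37b went from 3.15 to 4.36 RPKM with overlap (log2 change 0.37, limma adjusted p = 0.0845), and its main copy RpL37a from 5560 to 6763 RPKM without overlap (log2 change 0.28, limma adjusted p = 0.0803). RpL34a was at 20.9% ± 0.34 and 21.4% ± 0.94 of RpL34b, and its log2 change was 0.11 (limma adjusted p = 0.404).

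RpS5b had the largest positive log2 change of RPKM + 1 among tested members and showed a large gap between control sets. By the ratio of mean RPKM, RpL22-like (1.43-fold) and RpL37b (1.38-fold) stood above RpS5b (1.32-fold). RpS5b was 644 and 594 RPKM in OrgR set 1, 885 and 837 RPKM in OrgR set 2, and 979, 978, 985 and 951 RPKM in the esc libraries. The esc libraries were alike, and the OrgR sets were far apart. The log2 change was 0.42 ± 0.18 (limma adjusted p = 0.108), and it passed without OrgR set 2. As a percentage of RpS5a, RpS5b was at 13.4% and 12.9% in OrgR set 1, 19.7% and 19.8% in OrgR set 2, and 19.2% to 21.0% in esc, so the genotypes overlapped once the main copy was taken into account.

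Because several of these duplicates are known from the germ line, 12 germ cell markers are given beside them. Of these, 3 rose (25%), 3 fell (25%) and 6 did not pass, shares near the 20.9% and 31.6% of all tested genes. Those that fell included vas, the germ-line helicase gene (14.2 to 8.27 RPKM), and aub, a piRNA pathway gene (5.84 to 2.90 RPKM), and those that rose were gcl, mael and nos. The members of the list thus went both ways, with a median log2 change of -0.02. Their part in the values of RpS10a, RpS19b, RpS5b and RpL22-like was not tested.

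Of the 3 assembly factor genes, 1 fell, where 31.6% of all tested genes did, and in all 3 every esc library lay below every control, as in 45.3% of all tested genes. RpLP0-like, whose yeast homolog holds the place of the stalk protein during assembly, was 144, 137, 143 and 137 RPKM in OrgR and 87.9, 90.5, 70.6 and 71.8 RPKM in esc. The mean went from 140 ± 0.031 to 80.2 ± 12.7 RPKM, 42.8% lower, with a log2 change of -0.81 ± 0.13 (limma adjusted p = 0.0114), a call that ended without either OrgR set and without the filter on low values. RpL24-like went from 500 ± 42.7 to 394 ± 41.6 RPKM (log2 change -0.34, limma adjusted p = 0.0667) and RpL7-like from 270 ± 23.7 to 211 ± 22.1 RPKM (log2 change -0.36, limma adjusted p = 0.0607). Neither passed. Of the exonic bases of RpL7-like, 98.8% lie in exons of CG34164, so its value cannot be separated from that gene.

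The ratio of a duplicate to its main copy is not altered when all values of a library are multiplied by the same factor, apart from the small amount added here. It was computed for 13 of 14 pairs as log2 of both values with 0.1 RPKM added, leaving out RpL10Aa. The set means of the genotypes did not overlap in 10 pairs (76.9%), 8 lower (61.5%) and 2 higher (15.4%) in esc. Set against the median main copy in the same way, 83.5% of all tested genes did not overlap, 57.6% lower and 25.9% higher, so these counts were near the background. The exact permutation test over 4 sets cannot give less than p = 0.333 for any pair. The fall in ratio was largest for RpS10a (difference in log2 ratio -1.09), RpLP0-like (-0.89), RpS28-like (-0.73) and RpS14b (-0.66). RpL7-like went from 4.86% to 3.39% of RpL7, RpL24-like from 9.86% to 7.44% of RpL24, and RpS19b from 0.166% to 0.116% of RpS19a. The pairs higher in esc were RpL22-like, from 0.102% to 0.160% of RpL22 (difference 0.62), and RpL37b, from 0.0566% to 0.0642% of RpL37a (0.18). Quantile normalization, which is not a common factor, gave log2 changes of -0.18 for RpL37b and 0.14 for RpL37a, so this pair turned the other way. In RpL34a, RpS5b and RpS28a the set means overlapped.

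**Figure D4:**
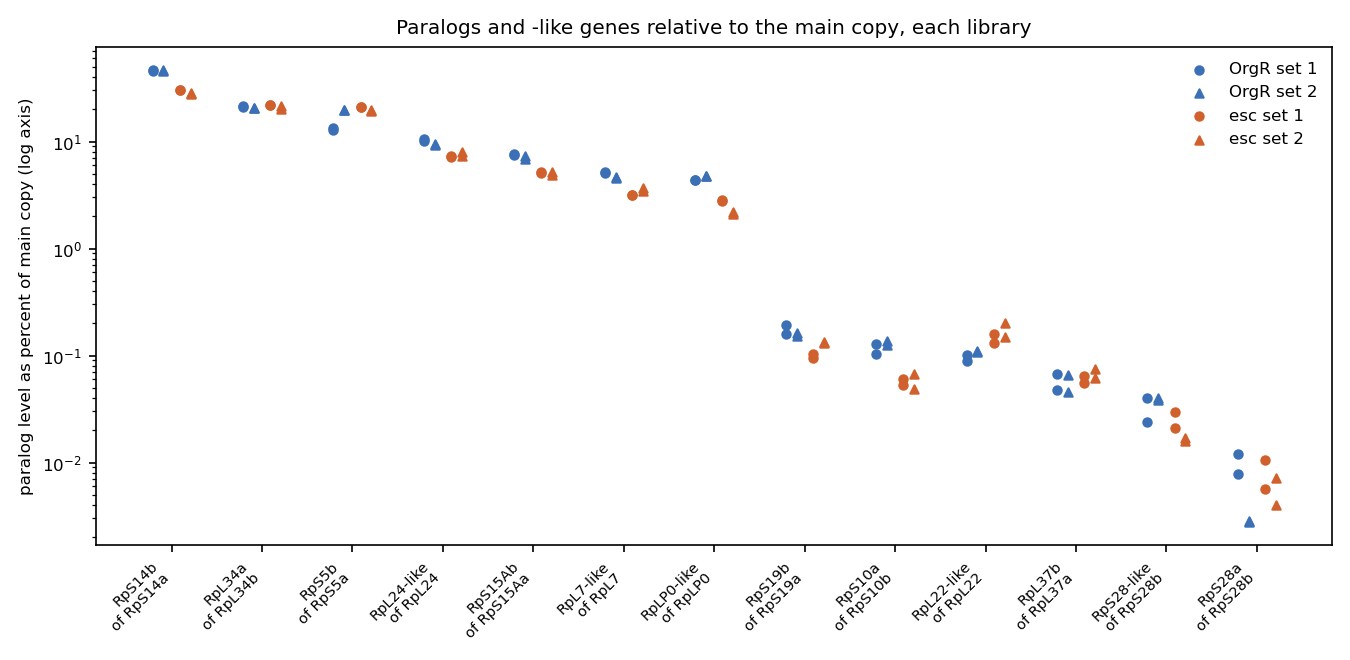
Level of each duplicate or -like gene as a percentage of its main copy in every library, on a log axis, with OrgR in blue, esc in orange, set 1 as circles and set 2 as triangles. RpS14b falls from 46.3% to 29.2% of RpS14a, and for RpS5b the circles of OrgR set 1 stand alone near 13%.

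Main copies that have a duplicate were placed differently in the genome from those that have none. Of the 10 main copies with a paralog, 8 lie on the X chromosome, the exceptions being RpL10Ab on 3L and RpL34b on 3R. Of the 68 without one, 5 lie on X (7.35%), against 16.1% of all tested genes with a position. The 11 paralogs themselves were mostly autosomal, with RpS14b alone on X. In 5 of 11 paralogs the annotation has a single exon block (RpL10Aa, RpL37b, RpS10a, RpS15Ab and RpS28a), against 1 of 78 main copies, RpLP2. Small nucleolar RNA genes, which in flies often sit in introns of ribosomal protein genes and guide modification of ribosomal RNA, lie within 28 of 78 main copies, 74 in all and 14 of them in RpS5a. None lies within a paralog or -like gene. The 13 main copies on X had a median log2 change of 0.10 and the 65 on autosomes one of 0.14.

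**Figure D5:**
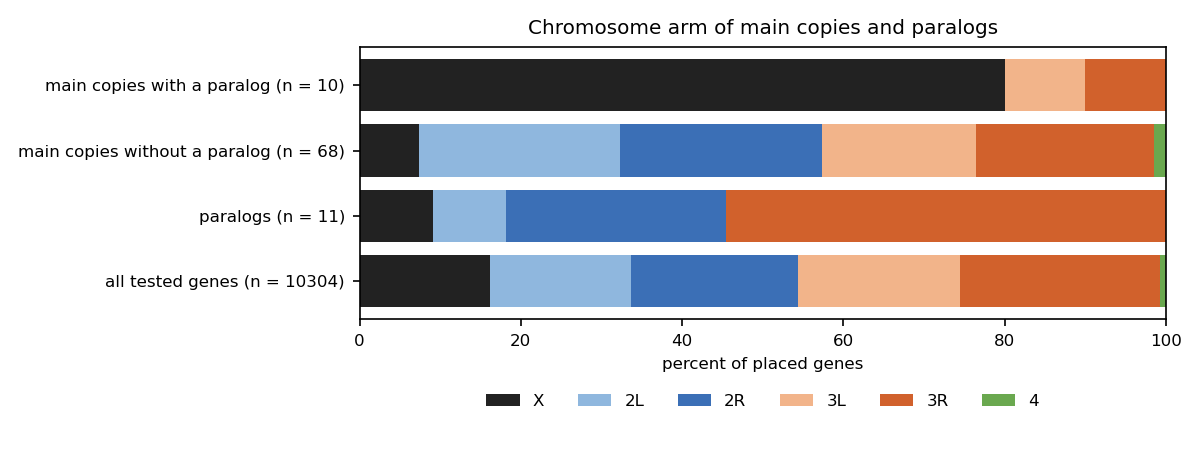
Percentage of genes on each chromosome arm among main copies with a paralog (n = 10), main copies without one (n = 68), paralogs (n = 11) and all tested genes with a position (n = 10304). The X chromosome holds 80% of main copies with a paralog and 7.35% of those without.

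Ribosomal proteins outside the symbol rule had levels within the range of the main copies. The small subunit proteins sta and Rack1 stood at 6697 and 8005 RPKM in OrgR. Their log2 changes were 0.04 each, with overlapping libraries, below the median of 0.13 of the main copies. Of 73 mitochondrial ribosomal protein genes, none rose, 4 fell and 69 did not pass, with a median log2 change of -0.03, and the largest falls were mRpS5 (-0.43) and mRpS31 (-0.39). The shares were 0% and 5.48%, against 20.9% and 31.6% of all tested genes. After centring on the median gene 2 rose and none fell, against 24.3% and 14.6% of all tested genes. With scaling to the median main copy 12 fell, against 40.3%. The median of the list lay between that of the main copies and that of all genes, with 10 genes below the latter.

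Most of the listed genes that build ribosomes fell. Of 28 ribosome biogenesis genes, 22 fell (78.6%, against 31.6% of all tested genes), none rose and 6 did not pass, and in 27 every esc library lay below every control (96.4%, against 45.3%). Nop60B, the pseudouridine synthase of small nucleolar RNA complexes, fell from 491 ± 39.2 to 269 ± 66.1 RPKM (log2 change -0.88 ± 0.19, limma adjusted p = 0.021). The gene nop5, for a core protein of the methylation complexes, fell from 272 ± 2.8 to 153 ± 33.1 RPKM (log2 change -0.85 ± 0.16, limma adjusted p = 0.0165). The median log2 change of the list was -0.47. After centring on the median gene, 9 of the 28 fell, against 14.6% of all tested genes on that scale. Of 35 tested translation factor genes, 12 fell (34.3%, near the share of all tested genes), none rose and 23 did not pass. Every esc library lay below every control in 23 of the 35 (65.7%, against 45.3%), and above in none (against 26.2%). After centring 3 of the 35 fell, against 14.6% of all tested genes, and with scaling to the median main copy 21, against 40.3%. The largest falls among them were eIF4G2, a scaffold of initiation (10.2 to 6.35 RPKM, log2 change -0.61), and eIF4AIII, the helicase of the exon junction complex (193 to 130 RPKM, -0.57).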

How the data were processed

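RNA-seq was measured in 8 libraries of pooled whole embryos, unstranded and paired-end with reads of 150 bp, per the labels. The authors deposited linear, unfiltered RPKM values for 17321 genes, with dm6 as the build named in the submitters' processing notes. The aligner, the counter and the gene models are not given in the sources used here. How reads were divided between a duplicate and its main copy is therefore not known for any pair. RPKM are shares of a library, the counts behind them were not recovered, and the spread between sets stands for the precision. The lowest value, 0.001, was treated as a floor. Nothing in the labels says that sets were separate collections or what the number after the hyphen marks, so libraries of a set were averaged, and p-values measure the spread between sets, which may be technical.

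The 10547 genes that averaged 0.5 RPKM or more were tested on log2(RPKM + 1), a scale that understates changes of low genes, with limma 3.58.1 in R 4.3.3 (lmFit, eBayes with trend, two-sided, Benjamini-Hochberg), on 4 set means with 2 residual degrees of freedom. The fit was checked on simulated data. The members, the lists and the rule for named genes were chosen with earlier results of these data known. The rule named every paralog and -like gene with its main copy, the stalk and ubiquitin-fusion genes, members past the threshold, the 5 highest and 5 lowest OrgR means, the 5 largest changes each way and up to 2 changes each way per other list. The lowest means belonged to untested or low duplicates already named, and other genes named were chosen after their values were seen. All 92 members were placed in the Ensembl annotation of dm6, 90 by symbol and 2 by synonym (RpL37a and RpL37b). Other scalings, filters, pseudocounts and designs and each left-out library or set were tried. No sequences are printed, and 1 main copy named by this rule is not reported here by name.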

Additional observations from a re-analysis of the deposited data

Results flagged for a closer look

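In either genotype, the named members and the members' share of all RPKM gave 74 groups of 4 libraries. Each was searched for a library far from the others, meaning that the gap to its neighbour, as a part of the group's range, passed Dixon's critical value. Chance flags about 1 in 20 groups of independent values, a rate that need not hold for libraries that share a set. Flags were found in 5 groups. RpS10a was at 6.66 RPKM in OrgR 1-1, with the other OrgR libraries between 7.62 and 7.67 RPKM. RpS19a was at 5903 RPKM in esc 2-2, with the others between 6048 and 6062 RPKM. In esc 2-1, RpL7 was at 6502 RPKM (others 6091 to 6137 RPKM) and RpL40 at 5235 RPKM (others 4909 to 4925 RPKM). RpS20 was at 6998 RPKM in esc 1-2, with the others between 6888 and 6904 RPKM. None of these values reaches the range of the other genotype in RpS10a or RpS20, the genes among them that passed the test.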

How the results depend on the processing

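The count of members that rose, 2 as reported, was 11 under median-of-ratios scaling, 9 after centring on the median gene, 1 with libraries rescaled to the same RPKM total, 42 with 8 libraries as separate replicates, 8 with a correlation within sets and 6 with set numbers crossed, and it was 0 after quantile normalization, with libraries scaled to the median main copy and without a filter. Of all 10547 tested genes, 2208 rose as reported, 2525 under median-of-ratios scaling, 2558 after centring and 2126 with the same RPKM total. With 8 separate libraries 2956 rose, with a correlation within sets 2379 and with crossed set numbers 2519. After quantile normalization 1754 rose, with scaling to the median main copy 2034, and without a filter 1679 of 17321. The count of members that fell, 4 as reported, was 2 under median-of-ratios scaling, after centring and without a filter, 9 after quantile normalization and with 8 separate libraries, 7 with the same RPKM total, and 8 with scaling to the median main copy and with crossed set numbers. Of all tested genes, 3329 fell as reported, 1409 under median-of-ratios scaling, 1542 after centring, 4004 after quantile normalization and 3859 with the same RPKM total. With 8 separate libraries 5050 fell, with scaling to the median main copy 4252, with crossed set numbers 4198, and without a filter 1909 of 17321. With the set number as a replicate block, 0 members rose and 2 fell, against 1568 and 899 of all tested genes. The calls of RpL39, RpS20, RpS14b and RpS15Ab ended with this block. Deviations of same-numbered sets had a correlation of -0.37 over 7032 genes. As each genotype has only 2 sets, this cannot show whether the sets were paired. The crossed pairing, both rescalings and their values were chosen after seeing the data. Leaving out 1 library gave 0 to 3 members that rose and 3 to 5 that fell. Of all tested genes, 2139 to 2237 rose and 3030 to 3509 fell in the same fits. Leaving out any of the 4 sets ended the calls of RpL39, RpS20, RpS14b and RpS15Ab. The median change of members minus that of all genes, 0.31, was 0.12 without a filter, 0.38 with a minimum mean of 5 RPKM and 0.23 to 0.37 with a library or set left out. The share difference of 1.43 points was 0.93 to 1.94, and the 10 pairs were 8 to 12, over the same left-out samples; the share difference was 2.10 without cuticle protein genes in the total and 2.44 without the highest 1 percent of other genes. The median of all genes moved from -0.18 to -0.02 under median-of-ratios scaling or centring, and rises went from 39.9% of 5537 called genes to 64.2% of 3934 and 62.4% of 4100; they were 63.6% of 2467 with the replicate block and 57.9% to 68.8% with a set left out. Over 35 named members with a test and 26 settings, 766 of 907 values kept their direction and side of the threshold, 43 lost a call, 58 gained one and 40 changed sign; the cause was not tested. Signs changed as follows on the log2 scale. RpL22 was 0.064 under median-of-ratios scaling and 0.038 after centring. With the same RPKM total, RpL24 was -0.021, RpL34b -0.0013, RpLP0 -0.0048, RpS10b -0.014, RpS16 -0.015, RpS19a -0.040 and RpS9 -0.061. With scaling to the median main copy, RpL24 was -0.080, RpL34a -0.027, RpL34b -0.060, RpLP0 -0.064, RpS10b -0.073, RpS16 -0.074, RpS19a -0.099, RpS28b -0.040, RpS5a -0.052 and RpS9 -0.12. After quantile normalization, RpL22-like was -0.13, RpL24 -0.090, RpL34a -0.070, RpL34b -0.059, RpL37b -0.18, RpLP0 -0.035, RpS10b -0.084, RpS16 -0.029, RpS19a -0.093, RpS28b -0.0033, RpS5a -0.038, RpS7 -0.011 and RpS9 -0.14. With a library or set left out, RpS9 ran from -0.031 to 0.070, RpS19a from -0.0040 to 0.085, RpL24 from -0.017 to 0.14, RpL34b from -0.051 to 0.21, RpS10b from -0.0016 to 0.13 and RpS16 from -0.063 to 0.19. RpS9 was lowest without OrgR set 2, as was RpS19a, and RpL24, RpL34b, RpS10b and RpS16 were lowest without esc set 2. A set left alone is taken to vary as much as the sets of the other genotype.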

Other observations

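Genes that set growth or respond to loss of ribosomal protein genes were looked at as a list. Of 17 listed genes, 7 fell (41.2%, against 31.6% of all tested genes), 1 rose (5.88%, against 20.9%) and 9 did not pass. The median log2 change was -0.41. In 47.1% every esc library lay below every control, near the 45.3% of all tested genes. After centring on the median gene 4 of the 17 fell, against 14.6% of all tested genes. The gene that rose was Xrp1, a transcription factor gene induced when a ribosomal protein gene copy is lost in flies, which went from 172 ± 11 to 267 ± 10.4 RPKM (SD, n = 2 sets) with a log2 change of 0.63 ± 0.09 (limma adjusted p = 0.00892). The largest falls were M1BP, whose product binds core promoter motifs of many ribosomal protein genes (81.9 to 50.9 RPKM, -0.68), and Max, the partner of Myc (223 to 148 RPKM, -0.59).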
